A study of Homo sapiens with 18 samples.

Results

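The exon parts of human chromosome 7 were followed in MDA-MB-231, an established line of triple-negative breast cancer (a tumour class without oestrogen, progesterone and HER2 receptors). An exon part is a probe set of the array that reads a stretch of an exon shared by a set of transcripts, so a gene is read by several of them. PTX cells had been given medium with 10 nM paclitaxel, 231T cells had received a vector carrying TRA2A, and control cells are labelled only as controls, with 3 arrays in each group and 9 in all. The labels do not give the time in paclitaxel, the promoter of the vector, whether 231T cells are a clone or a pool, or whether control cells received an empty vector, and do not state whether replicate arrays stem from independent cultures, so the tests weigh differences against an array-to-array spread that may be technical. The members are the exon parts whose ID carries chromosome code 7 and whose mean over the 9 arrays was at least 5 on the deposited log2 scale. They numbered 14277 of the 30363 exon parts of code 7 (47.0%) and made up 5.69% of the 250847 exon parts of codes 1 to 22 that met the same mean. The member with the lowest mean stood at 5.0001 and the highest exon part left out at 4.9999, while the median member stood at 7.16.

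The platform annotation gave 1 gene symbol to 10319 of the members, several symbols to 834 and none to 3124. The named members belonged to 864 genes, of which 595 had at least 5 tested parts. The running number followed the order of genes along the chromosome, first for the 336 genes placed on the plus strand and then for the 322 placed on the minus strand (Spearman's rho = 1 in both, across genes). Values identical to those of another tested part were held by 568 members, so such parts are not separate measurements.

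Chromosome 7 carries TRA2A itself, which encodes a protein that binds GAA-rich elements in exons and promotes their inclusion in the messenger RNA. It also carries ABCB1, which encodes P-glycoprotein, the pump that exports paclitaxel and many other drugs, and the CYP3A cluster, whose enzymes oxidise paclitaxel. Paclitaxel binds tubulin in microtubules, stabilises them and holds dividing cells in mitosis. Other genes of the chromosome that are often studied in breast cancer encode the receptors EGFR and MET, the cell cycle kinase CDK6, the chromatin enzyme EZH2 and the small heat shock protein HSPB1.

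Promoter sequences are shown for 4 genes that stood at the ends of the comparisons below and were chosen after their values were seen. Among chromosome 7 genes with at least 5 tested parts, SAMD9L and SAMD9 had the highest median difference over their exon parts in PTX and ASNS the lowest. TFPI2 had the highest in 231T. Each is the 250 bases before the gene's start in RefSeq on GRCh38.p14, all on the minus strand, at chr7:93148386-93148635 for SAMD9L, chr7:93117980-93118229 for SAMD9, chr7:97872409-97872658 for ASNS and chr7:93890754-93891003 for TFPI2. Capitals mark matches, on either strand, to GAAA, any 2 bases and GAAA again (the core of the interferon-stimulated response element), TGATGNAA (the core of the amino acid response element) or GGGCGG (the GC box).
SAMD9L: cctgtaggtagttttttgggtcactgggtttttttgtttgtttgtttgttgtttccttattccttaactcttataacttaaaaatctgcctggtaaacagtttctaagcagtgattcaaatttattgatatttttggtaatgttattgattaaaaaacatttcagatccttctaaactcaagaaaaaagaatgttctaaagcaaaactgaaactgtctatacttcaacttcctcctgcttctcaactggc
SAMD9: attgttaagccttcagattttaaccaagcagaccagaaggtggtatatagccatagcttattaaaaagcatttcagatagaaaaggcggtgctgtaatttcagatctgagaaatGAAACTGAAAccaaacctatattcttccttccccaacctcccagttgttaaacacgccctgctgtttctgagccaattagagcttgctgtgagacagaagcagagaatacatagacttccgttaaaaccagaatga
ASNS: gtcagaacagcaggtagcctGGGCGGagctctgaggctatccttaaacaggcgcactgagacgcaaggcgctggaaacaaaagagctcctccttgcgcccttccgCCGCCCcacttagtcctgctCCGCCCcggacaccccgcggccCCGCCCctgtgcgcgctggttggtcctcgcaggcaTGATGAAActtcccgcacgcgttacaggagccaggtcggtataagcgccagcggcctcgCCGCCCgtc
TFPI2: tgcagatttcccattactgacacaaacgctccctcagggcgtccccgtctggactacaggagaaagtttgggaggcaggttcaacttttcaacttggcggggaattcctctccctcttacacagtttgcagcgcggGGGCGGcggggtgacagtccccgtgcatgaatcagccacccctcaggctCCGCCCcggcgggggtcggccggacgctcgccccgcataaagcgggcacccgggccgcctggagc
The first motif was found in SAMD9 and in 3.02% of 35116 RefSeq promoters cut to the same length. The second was found in ASNS and in 3.14% of them. The third was found in ASNS and TFPI2 and in 42.6% of them. The 3 motifs do not overlap in these windows, and a match is a description of the letters only.

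The 231T arrays were not on the same footing as the others in the exon-level table. Of the 2995 probe sets held in both the exon-level and the gene-level table, all 2995 had the same value in both (within 0.001) on each 231T array, but only 6 to 64 did on the PTX arrays and 3 to 86 on the control arrays. The array medians over exon parts were 4.98 to 5.08 in PTX, 4.59 to 4.64 in 231T and 4.98 to 5.02 in control, while the gene-level medians were 4.08 to 4.25, 4.03 to 4.13 and 4.11 to 4.15 in the same groups. Each array was therefore centred on its median before every test. Over the shared probe sets, the centred difference of 231T from control still lay 0.15 higher in the exon-level than in the gene-level table (median, 5th to 95th percentile -0.28 to 0.64), and 14.4% of them differed by over 0.5. For PTX against control the median of that gap was 0.0041, and 0.801% differed by over 0.5. The sources used here do not say whether the exon-level 231T arrays were processed in another run, and for most genes described the gene-level record, another summary of the same arrays and no separate experiment, is given with the exon-level values. The windows and the genes with calls in both directions have none beside them.

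Among the members, Pearson's r between arrays (across exon parts) was 0.956 to 0.971 within PTX, 0.969 to 0.981 within 231T and 0.978 to 0.981 within control. It was 0.952 to 0.973 between PTX and control and 0.895 to 0.914 between 231T and control. The first PTX array stood nearer to 231T than the others, with a mean r of 0.926 against 0.888 for the second and 0.901 for the third. Vimentin (VIM), CD44 and AXL, markers of mesenchymal-type breast cancer lines, lay at or above the 97.8th percentile of gene-level records, and ESR1, PGR, CDH1 and the leukocyte gene PTPRC at or below the 37.4th. SPARC, the other mesenchymal marker, lay at the 88.7th, the luminal marker GATA3 at the 81.6th, and CD3E, LYZ and PECAM1, of leukocytes and endothelium, at the 49.6th, 36.2nd and 23.0th.

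No shift of chromosome 7 as a whole passed the test in either treatment. The centred median over its exon parts was 2.43, 2.05 and 2.29 on the PTX arrays, 2.52, 2.48 and 2.24 on the 231T arrays and 2.27, 2.34 and 2.30 on the control arrays, and the groups overlapped. The difference was -0.04 ± 0.12 (SE) for PTX minus control (adjusted p = 0.948, limma over the medians of 22 chromosomes) and 0.11 ± 0.12 for 231T minus control (adjusted p = 0.507). The 8683 junction probe sets of the chromosome, which the choice of members did not use, differed by 0.04 ± 0.06 in PTX (adjusted p = 0.740) and by -0.01 ± 0.06 in 231T (adjusted p = 0.936). None of these passed the threshold of 0.05, and the direction of the PTX shift turned to 0.06 without the second PTX array.

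Windows of 100 consecutive members in order of running number, each summarised by its median, were compared between the groups. That order passes the plus strand first and then the minus strand, so it is not position along the chromosome. Above running number 31886, the highest of a placed gene, the order was not checked. In PTX, 1 of 143 windows was called, against 0.279% of 2507 windows over all chromosomes. It held 30 exon parts of ASNS, 23 of SLC25A13 (a mitochondrial aspartate-glutamate carrier), 14 of TECPR1 and 12 of PDK4, and its centred level was 2.39, 2.05 and 2.50 in PTX against 3.06, 3.15 and 3.16 in control. The groups did not overlap, and the difference was -0.81 ± 0.13 (adjusted p = 0.0463). The call was absent without the second PTX array, the first or the second 231T array, or any control array. In 231T, 26 windows were higher and 25 lower, 51 of 143, against 39.5% over all chromosomes (22.7% higher and 16.8% lower). The lowest held EIF2AK1, a kinase of the integrated stress response, and DAGLB, with centred levels of 4.57, 4.44 and 4.76 in 231T against 6.39, 6.14 and 5.98 in control (-1.58 ± 0.19, adjusted p = 7.5e-04). The next were a window of GTF2I and GTF2IRD1, transcription factor genes of the Williams syndrome region (-1.35 ± 0.20), and one of PRKAG2 and SMARCD3 (-1.23 ± 0.14). The first of these held 49 parts of GTF2I and 9 of NCF1, genes with near-identical copies on this chromosome, so its level is uncertain. The highest held ESYT2 and NCAPG2, a condensin subunit gene (1.12 ± 0.29), followed by EGFR, CCT6A and LANCL2 (1.08 ± 0.23) and by DNAH11 and HDAC9 (1.08 ± 0.21). Without the first or second 231T array 29 and 23 windows were called, and without each control array 25, 30 and 29. As deposited, without centring, the split was 10 higher and 68 lower.

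**Figure D1:**
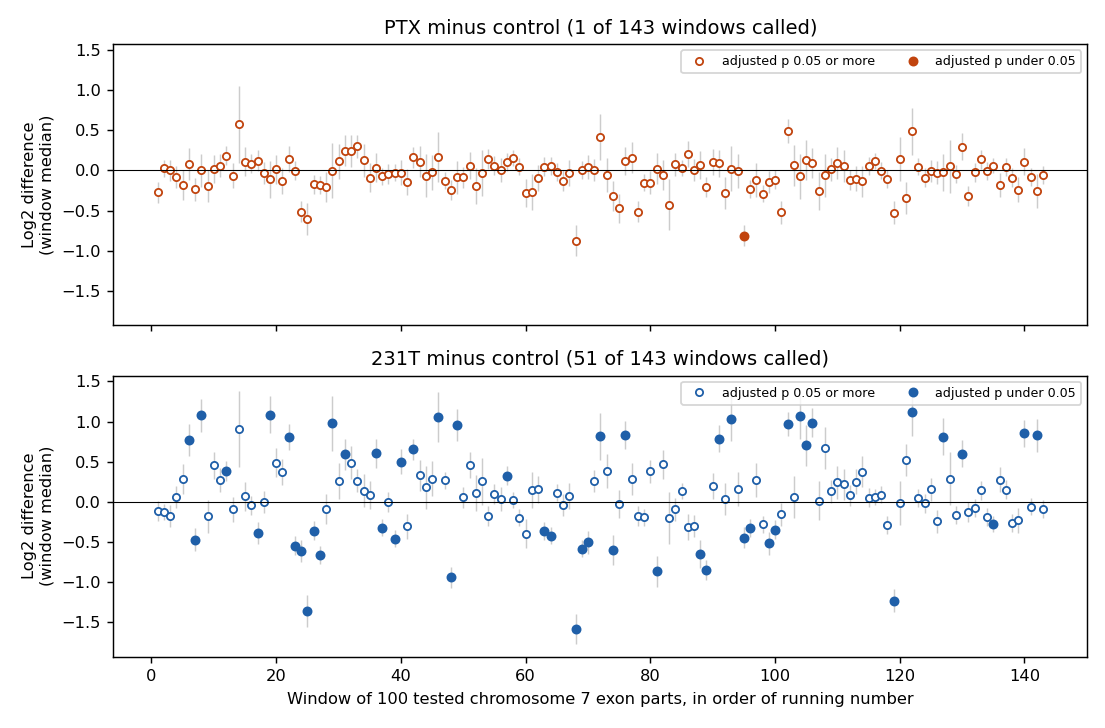
Log2 difference of each of 143 windows of 100 tested chromosome 7 exon parts (window median, centred arrays, bars are SE) in order of running number, for PTX minus control above and 231T minus control below; filled points have an adjusted p under 0.05. One window is called in PTX, and 51 are called in 231T, in both directions and spread along the chromosome.

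These are bulk samples, in which fewer cells with a transcript and less of it per cell cannot be told apart. In PTX, 126 members were called, 40 higher and 86 lower, which is 0.883% against 1.23% of the exon parts of all chromosomes. Higher calls made up 0.287% and lower calls 0.945% of all exon parts tested. At an unadjusted p under 0.05 there were 2016 members. The number rested on single arrays: it was 1, 4 and 1 without each control array in turn, 21 without the second PTX array, 52 without the first or the second 231T array, and 167 without the first PTX array, the one that stood nearer to 231T. Of the 595 genes with at least 5 tested parts, 36 held any call, 12 of them higher and 24 lower, and none held calls in both directions. The share without a call was 93.95%, against 91.8% of 11244 genes over all chromosomes.

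SAMD9L is an interferon-inducible gene that restrains cell growth and viral replication. Its median difference in PTX, 2.15, was the highest among the 595 genes with at least 5 tested parts. Of its 18 exon parts 11 were tested, and 5 of them were higher in PTX. The median over its tested parts was 7.90, 7.14 and 6.73 in PTX against 5.26, 5.22 and 5.41 in control, with no overlap. In 231T it was 4.999, 4.94 and 4.83 on the deposited scale, on which these arrays lie lower as a whole. Centred, it was 0.40, 0.35 and 0.20 in 231T and 0.23, 0.24 and 0.39 in control, and the groups overlapped. Single parts did differ: of the 11, 2 were higher and 2 lower in 231T than in control. The 2 higher calls were absent without the third control array and without centring. In 231T the gene-level record of SAMD9L, 4.66, 4.76 and 4.42, was not called against control (0.28 ± 0.32, adjusted p = 0.607). In PSR07024351.hg.1, 1 of the 3 called parts with the highest differences, the arrays read 9.28, 7.90 and 7.87 in PTX against 5.93, 5.18 and 4.79 in control (3.03 ± 0.48, adjusted p = 0.0233). PSR07024362.hg.1, also of SAMD9L, differed by 2.87 ± 0.44 (adjusted p = 0.0213). This part was also higher in 231T than in control (1.46 ± 0.44, adjusted p = 0.0237). Its mean was 6.85 in PTX, 5.02 in 231T and 3.96 in control, and that of PSR07024351.hg.1 was 8.35, 4.43 and 5.30. Both parts thus reached the mean of 5 only through the PTX arrays, and that limit favours parts that are high in PTX. The gene-level record was 6.52, 5.26 and 5.48 in PTX against 4.45, 4.36 and 4.41 in control, and its difference of 1.32 ± 0.32 missed the threshold (adjusted p = 0.0973). The called parts were 3 without the second PTX array and 0, 1 and 0 without each control array, where 6, 6 and 7 of the 11 had an unadjusted p under 0.05. SAMD9, the neighbouring paralogue, had a median difference of 1.91 over 5 tested parts, none of them called. The median over these parts was 7.65, 6.0004 and 6.35 in PTX against 4.85, 5.095 and 4.89 in control. Control thus lay close to the limit of 5, which favours parts that are high in PTX here too. How far the place of SAMD9 in the ranking rests on that limit was not tested. The gene-level record of SAMD9 read 6.57, 4.96 and 5.83 in PTX against 4.21, 4.76 and 4.29 in control (1.35 ± 0.40, adjusted p = 0.170).

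ASNS, which makes asparagine from aspartate and glutamine and is a target of the amino acid response, stood at the other end. Of its 36 exon parts 30 were tested and 3 were lower in PTX, with a median difference of -2.04 over the 30. PSR07024792.hg.1, the called part with the third lowest difference, read 14.18, 13.31 and 14.41 in PTX against 16.95, 16.22 and 16.50 in control (-2.61 ± 0.39, adjusted p = 0.0194). In 231T the same part read 17.84, 18.06 and 17.03, and 9 ASNS parts were higher and 1 lower than in control, although the gene-level record was not called (9.34, 9.91 and 8.24 in 231T, 0.89 ± 0.40 above control, adjusted p = 0.169) and overlapped control. Values above 16 exceed what a 16-bit scanner can record, so differences there are not read as folds of RNA. The gene-level record was 7.06, 6.70 and 7.37 in PTX against 8.60, 8.25 and 8.18 in control, without overlap, with a difference of -1.32 ± 0.40 (adjusted p = 0.184). The number of ASNS parts called in PTX was 12 without the third 231T array, 1 without the first, and 0 without the second PTX array or any control array, where 16 to 20 had an unadjusted p under 0.05 by limma. The 10 ASNS parts called in 231T numbered 3 and 1 without the first and second 231T array, 19 without the third, and 5 and 3 without the second and the third control array.

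**Figure D2:**
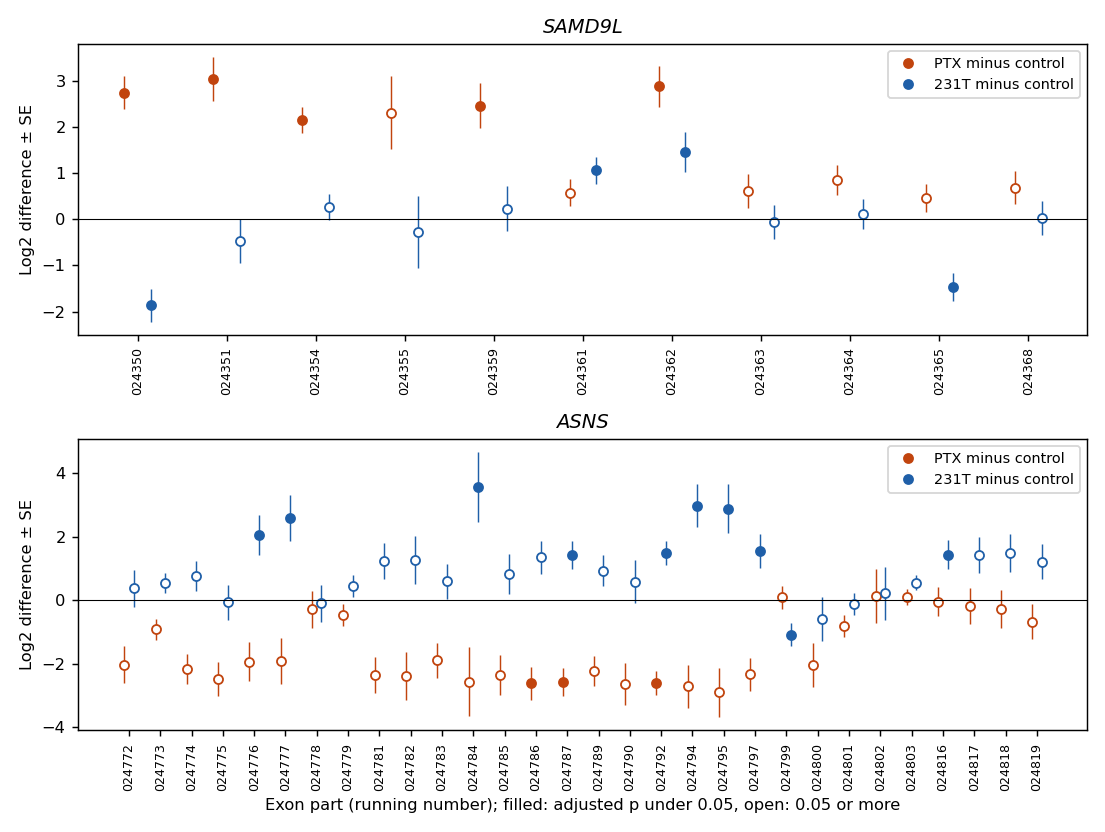
Log2 differences with SE of the tested exon parts of SAMD9L (above, 11 parts) and ASNS (below, 30 parts), in order of running number, for PTX minus control and 231T minus control; filled points have an adjusted p under 0.05. SAMD9L has 5 parts called higher in PTX, and 2 called higher and 2 lower in 231T. ASNS has 3 called lower in PTX, and 9 called higher and 1 lower in 231T.

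The other genes at the low end in PTX were PDK4, which encodes a kinase that shuts pyruvate dehydrogenase, CLDN4 (a tight junction claudin), INSIG1 (which holds the sterol sensor complex in the endoplasmic reticulum) and PDGFA (a growth factor). PDK4 had 1 of 15 tested parts lower and a record of 5.37, 5.27 and 5.15 in PTX against 5.76, 6.61 and 6.52 in control (-1.05 ± 0.22, adjusted p = 0.0626). CLDN4 had 3 of 6 parts lower and PDGFA 3 of 11, while INSIG1 had 0 of 13 called at a median difference of -1.42. SRRT, a partner of the nuclear cap-binding complex, had 6 of 27 parts higher and MCM7, a subunit of the replicative helicase, 4 of 30. Runs of consecutive called parts were short: 7 runs of 3 parts each, of which those in SAMD9L and TRA2A were higher and those in TMED4, CLDN4 and BAIAP2L1 lower. The last 2 lay in the POLR2J3 and UPK3BL copies, were lower, and share sequence with near-identical genes, so their parts are uncertain. The lowest difference of all was in PSR07008957.hg.1, which has no gene name: it read 7.28, 7.17 and 7.82 in PTX against 10.82, 11.21 and 10.67 in control (-3.49 ± 0.29, adjusted p = 0.00452), and 5.07, 5.12 and 5.72 in 231T. It alone among the 6 named parts of this comparison kept its call with any 1 array left out. PSR07034865.hg.1, also unnamed, had the highest difference, 3.08 ± 0.36 (adjusted p = 0.0117), and a part of the orphan receptor gene GPR22 the second lowest, -3.23 ± 0.45 (adjusted p = 0.0167). The GPR22 part had a mean of 4.36 in PTX, 5.23 in 231T and 7.57 in control, so it reached the mean of 5 only through the control arrays.

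At the gene level, 18 of 2510 records of code 7 were called in PTX, 6 higher and 12 lower, which is 0.717% against 1.20% of 47460 records (0.259% higher and 0.942% lower). Of the 6 higher records 3, all unnamed, held identical values on all 9 arrays, so the 6 amount to 4 separate measurements. Among the 2510 records, 72 shared their values with another. TMED4, whose protein belongs to the p24 family of cargo receptors between endoplasmic reticulum and Golgi, read 7.56, 6.97 and 7.59 in PTX against 8.89, 8.79 and 8.73 in control (-1.44 ± 0.19, adjusted p = 0.0204), with 4 of 11 exon parts lower. In 231T the record was 7.94, 7.76 and 7.94, also lower than control (-0.85 ± 0.19, adjusted p = 0.0160). CLIP2, which encodes a linker between membranes and microtubules, differed by -0.61 ± 0.11 (adjusted p = 0.0401), GSTK1, a glutathione transferase gene, by -0.85 ± 0.13 (adjusted p = 0.0264), and GTF2IRD1 by -0.73 ± 0.12 (adjusted p = 0.0356). HMGN2P11, a processed pseudogene, was higher by 1.15 ± 0.18 (adjusted p = 0.0296). All 6 named records called in PTX, these and GS1-259H13.2, lost the call on leaving out at least 1 array; TMED4 lost it without each control array (highest adjusted p = 0.0766). The count was 2, 4 and 1 without each control array, 51 and 6 without the first and second PTX array, and 10 and 8 without the first and second 231T array.

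In 231T, 5171 members were called, 2688 higher and 2483 lower, which is 36.2% against 38.4% of all exon parts. As deposited, without centring, the split was 1778 higher and 4493 lower. Higher calls made up 20.9% and lower calls 17.5% over all chromosomes. At the gene level 278 records were higher and 230 lower, 20.2% of 2510 against 19.3% of all records (10.3% higher and 8.95% lower). Without the second 231T array, the first control array or the third control array 313, 330 and 312 records were called. Of the 595 genes with at least 5 tested parts, 71 (11.9%) had more than 50% of them higher and 50 (8.40%) more than 50% lower, against 15.4% and 9.69% of 11244 genes over all chromosomes. Among those with a tested gene-level record, 58 of 62 had the record called higher and 40 of 45 had it called lower, and none had it called the opposite way. The records summarise the same arrays, so this is no separate test of the exon-level calls. The matching share over all chromosomes was not computed. Runs of at least 3 consecutive called parts numbered 252 higher and 201 lower. Runs were counted on chromosome 7 only in every comparison, so their number does not show whether the chromosome stands apart.

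TRA2A itself, the gene that 231T cells received, was higher in 231T, and in part higher in PTX. The gene-level record read 8.32, 7.82 and 7.60 in PTX, 9.37, 9.42 and 9.19 in 231T and 6.50, 7.15 and 6.95 in control. The 3 groups did not overlap. The difference was 2.53 ± 0.24 for 231T minus control (adjusted p = 5.0e-04), 1.02 ± 0.24 for PTX minus control (adjusted p = 0.0892) and -1.51 ± 0.24 for PTX minus 231T (adjusted p = 0.00460). Of the 27 exon parts 22 were tested, of which 17 were higher and 1 lower in 231T, and 7 were higher in PTX. PSR07018755.hg.1 had the highest difference of all members in 231T and read 11.27, 9.84 and 10.18 in PTX, 14.17, 14.64 and 14.52 in 231T and 7.82, 8.51 and 8.17 in control. It differed by 6.67 ± 0.38 for 231T minus control (adjusted p = 1.4e-05) and by 2.24 ± 0.38 for PTX minus control (adjusted p = 0.0287). The median over the tested parts was 3.44 for 231T minus control and 1.63 for PTX minus control.

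The TRA2A exon parts did not move as one. PSR07018748.hg.1, the brightest, was lower in 231T: it read 17.80, 18.05 and 18.07 in PTX, 16.59, 16.67 and 16.64 in 231T and 18.00, 17.70 and 17.98 in control (-0.86 for 231T minus control, adjusted p = 0.0108), at levels above the scanner range. PSR07018761.hg.1 read 11.34, 12.24 and 12.46 in PTX, 10.85, 9.83 and 9.12 in 231T and 10.21, 10.67 and 10.64 in control, and differed by -0.17 in 231T (adjusted p = 0.779). PSR07018764.hg.1, the part with the highest running number, read 9.10, 7.86 and 8.52 in PTX, 11.57, 11.53 and 11.26 in 231T and 6.44, 6.96 and 6.65 in control (5.17 for 231T minus control, adjusted p = 1.9e-05). Directly between PTX and 231T, 2 TRA2A parts were higher and 16 lower in PTX. Over the 9 sets with 1 array left out, 17 or 18 parts were called in 231T. In PTX 0 were called with any 1 control array left out, where 12, 16 and 15 had an unadjusted p under 0.05, and 2 without the first or second 231T array, 3 without the second PTX array and 4 without the first. Which parts the vector sequence covers is not given in the sources used here.

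**Figure D3:**
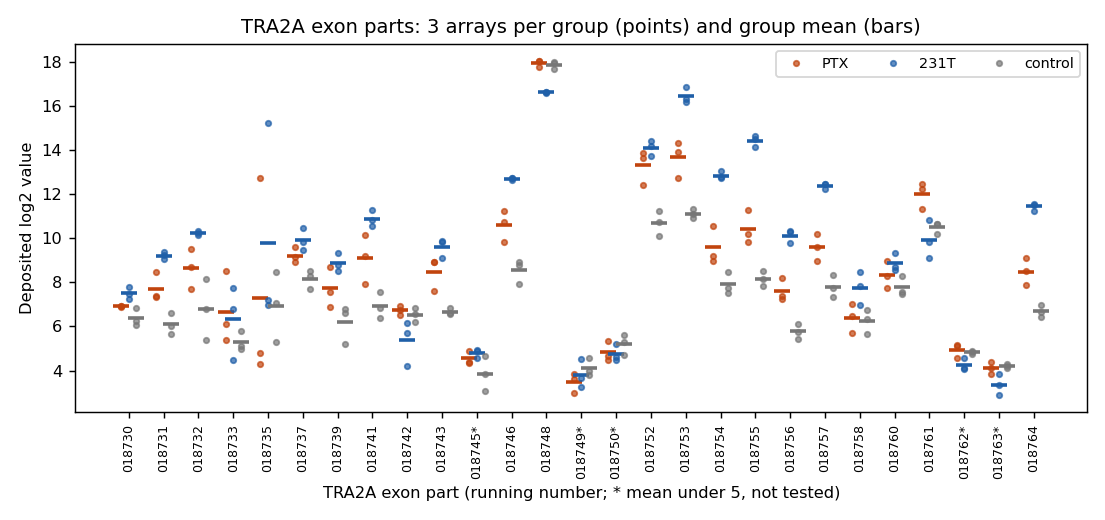
Deposited log2 values of all 27 TRA2A exon parts in order of running number on the 3 arrays (points) of PTX, 231T and control, with group means (bars); asterisks mark the 5 parts with a mean under 5. Most parts are highest in 231T and lowest in control, while 018748 is lower in 231T.

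Among genes with at least 5 tested parts, those with the highest median difference in 231T were TFPI2, IGFBP3, PSMC2, XRCC2 and TRA2A. TFPI2 encodes a protease inhibitor deposited in the extracellular matrix, and all 10 of its tested parts were higher. Its record read 6.89, 6.11 and 6.54 in PTX, 9.85, 9.78 and 9.65 in 231T and 6.15, 6.55 and 6.19 in control, with only PTX and control overlapping (3.53 ± 0.23 for 231T minus control, adjusted p = 1.9e-04). IGFBP3, the main carrier of insulin-like growth factors in serum, had 13 of 15 parts higher and a record of 7.68, 7.63 and 7.87 in 231T against 6.003, 5.88 and 5.91 in control (1.87 ± 0.08, adjusted p = 7.4e-05). PSMC2, an ATPase subunit of the proteasome, had 14 of 15 parts higher in 1 unbroken run, and a record difference of 3.30 ± 0.38 (adjusted p = 0.00101). XRCC2, which acts in repair by homologous recombination, had 5 of 6 parts higher and a record of 8.52, 8.30 and 8.55 in 231T against 4.74, 6.05 and 5.78 in control (3.01 ± 0.33, adjusted p = 8.8e-04). EZH2, the methyltransferase of Polycomb repressive complex 2, had 22 of 28 parts higher, and its part PSR07030630.hg.1 differed by 6.34 ± 0.61 (adjusted p = 8.6e-05). Its record read 7.21, 6.87 and 6.79 in PTX, 7.73, 7.84 and 7.38 in 231T and 5.90, 6.23 and 6.31 in control, so that every 231T array and every PTX array lay above every control array. The difference was 1.58 ± 0.20 in 231T (adjusted p = 0.00144) and 0.79 ± 0.20 in PTX (adjusted p = 0.109).

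At the low end of 231T stood TSPAN13, TNS3, HSPB1, CREB3L2 and SMARCD3. TNS3 encodes tensin-3, an adaptor at focal adhesions, and 40 of its 46 tested parts were lower, 20 of them in the longest run of lower calls. Its record read 9.28, 8.85 and 9.33 in PTX, 7.16, 6.86 and 6.76 in 231T and 9.18, 9.17 and 9.49 in control (-2.28 ± 0.19 for 231T minus control, adjusted p = 3.8e-04), and PTX overlapped control. PSR07021296.hg.1, a TNS3 part, read 14.17, 14.54 and 15.20 in PTX, 8.18, 7.78 and 7.45 in 231T and 14.82, 14.20 and 15.14 in control, the lowest difference of all members (-6.52 ± 0.35, adjusted p = 1.2e-05). HSPB1, an actin-protecting small heat shock protein, had 10 of 10 parts lower and a record of 9.19, 8.98 and 9.46 in 231T against 11.55, 11.57 and 11.52 in control (-2.27 ± 0.21, adjusted p = 5.0e-04). TSPAN13, a tetraspanin gene, had 8 of 10 parts lower and a record of 7.73, 8.13 and 8.24 in 231T against 11.19, 9.73 and 10.13 in control (-2.24 ± 0.37, adjusted p = 0.00428). CREB3L2, which encodes a transcription factor anchored in the endoplasmic reticulum, had 17 of 23 parts lower (record -1.90 ± 0.27, adjusted p = 0.00217), and SMARCD3, a subunit of the BAF chromatin remodeller, 14 of 20 with 1 higher (record -0.52 ± 0.08, adjusted p = 0.00416). A part of BBS9, a component of the ciliary BBSome, differed by -5.17 ± 0.88 (adjusted p = 0.00140), with control arrays between 9.37 and 12.72, and its record by -0.78 ± 0.12 (adjusted p = 0.00308). The longest runs of higher calls were 17 parts of HNRNPA2B1 and 17 of the zinc finger gene ZNF655. Of 41 records named in the text or in its gene lists and called in 231T, 36 kept the call with any 1 array left out. The exceptions were AGR2, CLDN4, PDK4, SEMA3C and TMED4. Among the 36 are the line markers CD44 on chromosome 11 (1.05 ± 0.20, adjusted p = 0.00814) and AXL on chromosome 19 (-1.21 ± 0.21, adjusted p = 0.00600).

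**Figure D4:**
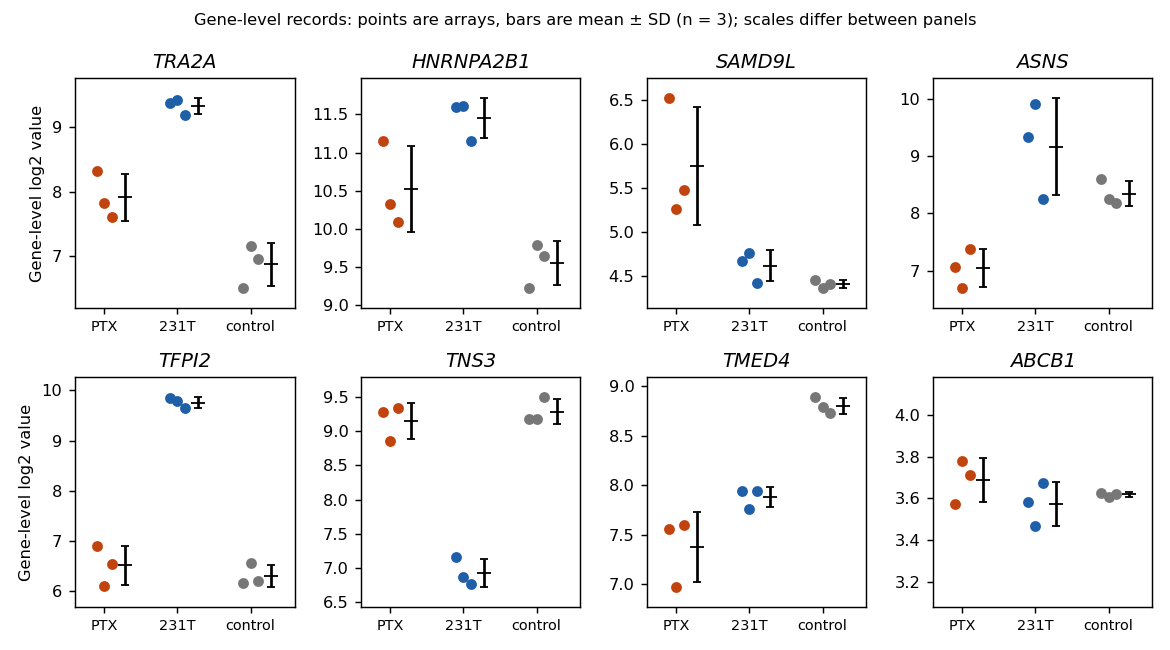
Gene-level log2 values of 8 chromosome 7 genes on each array (points) in PTX, 231T and control, with mean and SD (n = 3); each panel has its own scale. TRA2A and TFPI2 are highest in 231T, TNS3 is lowest there, SAMD9L is highest and ASNS lowest in PTX, TMED4 is lower in both treatments, and ABCB1 lies between 3.47 and 3.78 in every group.

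The gene-level record of ABCB1 was 3.58, 3.78 and 3.71 in PTX, 3.58, 3.47 and 3.68 in 231T and 3.63, 3.61 and 3.62 in control. That is below the brightness needed for a test at the gene level (3.70, the 25th percentile of records), and the groups overlapped. Only 5 of its 44 exon parts had a mean of at least 5. None of the 5 was called in PTX, where their differences were between -0.06 and 0.94 (limma, adjusted p of at least 0.342), and PSR07023894.hg.1 was lower in 231T (-1.29, adjusted p = 0.0135). Over the 7 ABC transporter genes, 0 of 64 tested parts were called in PTX by limma (4 at an unadjusted p under 0.05), where 1.23% of all exon parts were called. In 231T 10 of the 64 were higher and 10 lower, 15.6% each, where 20.9% and 17.5% of all exon parts were. ABCF2, a member of the family without membrane domains, had a record of 10.35, 10.34 and 10.49 in PTX and 10.01, 10.23 and 10.06 in control (0.27 ± 0.12, adjusted p = 0.365). CYP3A4 read 3.73, 3.89 and 3.74 in PTX against 3.84, 3.78 and 3.74 in control, and the groups overlapped. CYP3A43, a member of the cluster, had a median over its 4 tested parts of 7.75, 8.08 and 8.27 in PTX, 8.05, 7.77 and 7.99 in 231T and 8.88, 9.72 and 9.31 in control, so both treatments lay below control on the deposited scale, on which the 231T arrays lie lower as a whole. None of the 4 was called in PTX and 1 was higher and 1 lower in 231T. Its record read 3.73, 4.06 and 3.85 in PTX, 3.88, 3.87 and 4.03 in 231T and 4.12, 4.27 and 4.04 in control (-0.28 ± 0.09 for PTX minus control, adjusted p = 0.227). Of the 8 tested parts of the CYP3A genes, 0 were called in PTX by limma (2 at an unadjusted p under 0.05), and 1 was higher and 2 lower in 231T, where 20.9% and 17.5% of all exon parts were.

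Genes of RNA binding and splicing were called higher more than lower in 231T. Of 14 with a tested record, 6 were higher and 0 lower, where 10.3% and 8.95% of all records were. The 6 were TRA2A, HNRNPA2B1, BUD31 (a spliceosome component), LSM8 (of the ring that binds U6 RNA), RBM28 (a nucleolar protein of ribosome assembly) and SRRT. The median difference over the list was 0.57, against -0.0019 over all records. TRA2A, the gene that 231T cells received, is counted in the 6 and in this median, and neither was computed without it. HNRNPA2B1, an abundant nuclear RNA-binding protein, read 11.15, 10.32 and 10.09 in PTX, 11.59, 11.61 and 11.15 in 231T and 9.22, 9.78 and 9.64 in control, with 21 of 26 parts higher in 231T and 2 in PTX (record 1.97 ± 0.31 for 231T, adjusted p = 0.00346; 0.95 ± 0.31 for PTX, adjusted p = 0.209). LSM8 differed by 1.03 ± 0.13 (adjusted p = 0.00154) and RBM28 by 1.28 ± 0.18 (adjusted p = 0.00220) in 231T. Of the 298 tested exon parts of the list, 121 were higher and 26 lower in 231T, 40.6% and 8.72%, where 20.9% and 17.5% of all exon parts were. TRA2A held 17 of the 121 and 1 of the 26. In PTX 15 of the 298 were higher (5.03%) and 0 lower, where 0.287% and 0.945% of all exon parts were. All 15 lay in TRA2A, SRRT and HNRNPA2B1, and 0 of 14 records were called by limma (4 at an unadjusted p under 0.05). With any 1 control array left out, TRA2A and HNRNPA2B1 held 0 of these calls. At an unadjusted p under 0.05 by limma, 9, 14 and 12 HNRNPA2B1 parts remained without each control array in turn. SRRT read 7.24, 7.66 and 7.29 in PTX, 7.75, 7.56 and 7.73 in 231T and 6.44, 6.88 and 6.74 in control, so both treatments lay above control (0.69 ± 0.14 in PTX, adjusted p = 0.0616; 1.06 ± 0.14 in 231T, adjusted p = 0.00167).

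Among receptor kinases, RAS pathway and cell cycle genes, CDK6, PIK3CG (a catalytic subunit of phosphoinositide 3-kinase) and MCM7 were higher in 231T and the receptor EPHB4 and the kinase CDK5 lower, 3 and 2 of 14 tested records. Over all records 10.3% were higher and 8.95% lower in 231T. CDK6 read 5.70, 5.44 and 5.58 in PTX, 7.40, 7.41 and 6.54 in 231T and 5.54, 5.42 and 5.59 in control (1.67 ± 0.25 for 231T minus control, adjusted p = 0.00275), with 10 of 11 parts higher in 231T. EGFR was not called: its record read 9.65, 8.95 and 9.43 in PTX, 10.55, 11.09 and 9.48 in 231T and 10.55, 9.70 and 10.21 in control. Of its 38 tested parts, 18 were lower in PTX than in 231T, where 21.6% of all exon parts were. Of 23 tested records of secreted, matrix and invasion genes, INHBA (the activin A subunit), TFPI2, LAMB1 (a laminin chain), SEMA3C and SEMA3E (secreted guidance cues) were higher in 231T and AGR2 (a disulphide isomerase of secretory cells) lower. That is 5 higher and 1 lower, where 10.3% and 8.95% of all records were. AGR2 read 4.74, 4.56 and 4.82 in PTX, 3.71, 3.75 and 3.98 in 231T and 4.45, 4.26 and 4.38 in control, and its call in 231T (-0.48 ± 0.12, adjusted p = 0.0228) was absent without the first or second 231T array or the first or the third control array. In PTX 0 records of either list were called by limma, with 2 and 4 at an unadjusted p under 0.05. Of 11 HOXA genes 1 had a record of its own, HOXA2, and it was not called. Of 17 tested exon parts of the cluster 1 was higher and 1 lower in 231T, 5.88% each, where 20.9% and 17.5% of all exon parts were.

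Set directly against each other, PTX and 231T differed in 4944 members, 2161 higher and 2783 lower in PTX, which is 34.6% against 36.0% of all exon parts (14.4% higher and 21.6% lower). Without centring the split was 4204 higher and 1713 lower, and after quantile normalization 2834 and 2171. At the gene level 194 records were higher and 291 lower in PTX, 19.3% of 2510 against 19.8% of all records (8.15% higher and 11.7% lower). Without centring the split was 297 and 251, and without the third PTX array, the first or the second 231T array 287, 301 and 275 records were called. Of the windows 17 were higher and 22 lower (30.6% of all windows were called, 9.01% higher and 21.6% lower). This was 61 and 6 without centring and 30 and 21 after quantile normalization, and in all 16 windows were called without the third PTX array, 64 without the first, and 17 and 14 without the first and second 231T array. The highest genes in PTX against 231T were AGR2, TNS3, GTF2IP1, SAMD9L and GTF2I, and the lowest TFPI2, IGFBP3, SBDS (a ribosome maturation factor), XRCC2 and ASNS. ASNS had 22 of 30 parts lower and 1 higher, 13 of them in 1 run, and its record differed by -2.21 ± 0.40 (adjusted p = 0.00786). SAMD9L had 7 of 11 parts higher and 0 lower (record 1.05 ± 0.32, adjusted p = 0.0505). SBDS read 11.54, 10.60 and 10.57 in PTX against 12.81, 13.02 and 12.85 in 231T, with all 6 tested parts lower (-2.08 ± 0.27, adjusted p = 0.00217). ETV1, an ETS transcription factor gene, had 23 of 33 parts higher, with PSR07018024.hg.1 reading 14.24, 12.75 and 13.78 in PTX against 8.70, 7.86 and 7.52 in 231T (5.14 ± 0.46, adjusted p = 1.1e-04). The ETV1 record differed by 1.27 ± 0.22 (adjusted p = 0.00595). An HSPB1 part differed by 5.11 ± 1.06 (adjusted p = 0.00473), with values of 19.88 to 19.93 in PTX, above the scanner range. The lowest differences, -6.82 in a pair of unnamed parts with identical values and -6.78 in another unnamed part, had adjusted p of 9.1e-05 and 1.4e-05. Runs of 25 parts were higher in PTX in GTF2IP1 and in a stretch of WBSCR16 and NCF1C, genes with near-identical copies on this chromosome, so their values are uncertain. GTF2I and GTF2IP1, both among the highest genes, need not be separate measurements.

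Some genes held exon parts called in opposite directions. In 231T, 70 of the 595 genes (11.8%, against 11.03% of 11244 genes over all chromosomes) had at least 2 parts higher and 2 lower than control. PTPN12, a tyrosine phosphatase gene, had 6 parts higher and 6 lower of 38, PILRB 6 and 5 of 39, POLD2 (a DNA polymerase delta subunit) 5 and 5 of 29, and TRRAP (a scaffold of histone acetyltransferase complexes) 5 and 12 of 77. In PTX 0 genes did so, by limma, over chromosome 7 or over all chromosomes. The exon-level 231T arrays are those whose values differ in footing from the other arrays, and the part of that in these opposite calls was not tested. Background probes, grouped by GC count and matching no transcript, were higher in 231T than in control at 22 of 23 GC counts after centring, by up to 0.99 (at a GC count of 11), and lower at a GC count of 3 (-0.97). For PTX minus control they ran from -0.76 at a GC count of 3 to 0.29 at 25, with 14 of 23 above 0.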

How the data were processed

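Total RNA was labelled with biotin and hybridised to Affymetrix exon and junction arrays. The authors deposited log2 values made by RMA in Affymetrix's Expression Console (version 1.3.1), per the submitters' processing notes. RMA settings, genome build and which arrays RMA handled together are not stated in those notes. An exon-level and a gene-level table hold the same 9 arrays. Descriptions of control arrays 2 and 3 give a line name with another final digit; the cell line label was followed. Gene names came from the platform annotation, which can be old.

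Centring subtracted from each array its own median over exon parts of codes 1 to 22, and at the gene level over gene records of the same codes. Exon parts with a mean of at least 5, windows of 100 of them (a last window kept from 50), chromosome medians, and gene-level records at or above the 25th percentile were fitted by lmFit and eBayes of limma (3.58.1, under R 4.3.3) with the 3 groups in 1 model and 6 residual degrees of freedom. The Benjamini-Hochberg procedure ran over all features of a kind, at a threshold of 0.05. Every adjusted p is limma's. Where a gene had several records, the brightest was taken. Fold changes are log2 differences of centred values, and levels are as deposited. The fits were tested on simulated data with noise drawn independently for each value, which did not address the footing of the 231T arrays. Of 50 exon parts each with a made 231T difference of 1, -1, 2 and -2, 25, 37, 45 and 47 were called. Of 10 windows with a made difference of 1, 7 were called. In PTX, where no difference was made, 0 parts were called. The number of arrays limits the precision (median SE of an exon part 0.33).

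Named items were the 3 highest and 3 lowest called exon parts without overlap, the longest runs, the extreme windows and gene lists on splicing, ABC transporters, CYP3A, kinases, HOXA and secreted proteins. Members and lists were chosen with earlier results of these data known. The 5 genes with the highest and lowest median difference per comparison, and genes in shorter runs, were added after their values were seen. These rankings covered chromosome 7 genes with at least 5 tested parts. The labels do not say whether same-numbered arrays share a culture or batch, and the main fits did not pair them. Correlations of their deviations from the group means were -0.22 to 0.055. With 3 arrays per group these cannot settle the question. Both comparisons against control share the control arrays. Alternatives were other centring, normalization, brightness limits, window sizes, fits and arrays left out.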

Additional observations from a re-analysis of the deposited data

How the results depend on the processing

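No shift of chromosome 7 passed the threshold once arrays were centred, and its direction followed the scaling: without centring it was -0.29 for 231T minus control and 0.26 for PTX minus 231T, and after quantile normalization 0.0165 for PTX minus control, -0.0228 for 231T minus control and 0.0393 for PTX minus 231T. Without centring the junction shift passed at -0.40 for 231T minus control and 0.50 for PTX minus 231T, in the table whose 231T arrays lie lower as a whole. With arrays left out in turn, the exon part shift ran from -0.13 to 0.0603 for PTX minus control (the high end without the second PTX array), 0.06 to 0.20 for 231T minus control and -0.24 to -0.05 for PTX minus 231T, and the junction shift in the same order of comparisons from 0.0284 to 0.0592, -0.0452 to 0.0274 and 0.0134 to 0.0860. Exon parts called in PTX were 77 at a mean of at least 4, 27 with the 2 groups alone, 18 with the replicate number as a block and 424 with array weights, and 1 to 167 with arrays left out. They were 3869 to 5511 for 231T minus control and 3600 to 5260 for PTX minus 231T, where a mean of at least 7 left 3292. Windows called in PTX were 3 after quantile normalization, 4 in windows of 50, and 0 at means of at least 4 or 7, with 2 groups alone, under the replicate block, with identical parts kept once and in windows of 200, where limma gave 3 to 16 at an unadjusted p under 0.05; arrays left out gave 0 to 1. For 231T minus control they were 78 without centring, 17 and 105 in windows of 200 and 50, and 23 to 61 with arrays left out. For PTX minus 231T they were 67 without centring, 15 with 2 groups alone, 13 and 80 in windows of 200 and 50, and 14 to 64 with arrays left out. Gene-level records called in PTX were 2 under the replicate block and 1 to 51 with arrays left out, against 312 to 549 for 231T minus control and 275 to 564 for PTX minus 231T. Whether same-numbered arrays share more than a number is not known. The block left 4 of 6 named exon parts and 1 of 6 named records called in PTX. It left all 6 parts and all 41 records in 231T, and 31 of 34 records for PTX minus 231T. Counts per gene and for named features were computed under alternatives chosen after seeing the data. Where the cause is not in the construction of an alternative (fewer arrays, other windows or fewer parts), it was not tested.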
